A study of Mus musculus with 10 samples.

Results

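The transcripts of 9 CXC chemokine ligands were measured in mouse peritoneal macrophages by bulk RNA-seq. The ligands were Cxcl1, Cxcl2, Cxcl3, Cxcl5, Cxcl9, Cxcl10, Cxcl11, Cxcl14 and Cxcl16, picked by name from the 29700 rows of the gene table that are not circular RNAs, and 8 of the 9 had enough reads to be tested. The macrophages came from 8-week-old C57BL/6 wild-type mice, which had been given thioglycollate to draw cells into the peritoneum. The 5 ox-LDL libraries were from cells given LPS at 100 ng/ml and then oxidized low-density lipoprotein (ox-LDL) at 100 µg/ml for 16 hours, and the 5 control libraries are labelled untreated. By these labels LPS went to the ox-LDL cells alone, so the effects of LPS and of ox-LDL cannot be told apart, while a legend of the study can be read as LPS for both groups. The series text calls the 5 libraries of a group biological replicates, without saying whether each came from a different mouse. In a bulk library, more cells that make a transcript and more transcript per cell cannot be told apart either.

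CXC chemokines are small secreted proteins that attract leukocytes through G-protein-coupled receptors. Cxcl1, Cxcl2, Cxcl3 and Cxcl5 carry a Glu-Leu-Arg motif near the amino end, bind Cxcr2 and draw neutrophils, and in macrophages the first of them are classical targets of NF-kB after LPS. Cxcl9, Cxcl10 and Cxcl11 lack that motif, bind Cxcr3 on activated T and NK cells, and are induced by interferons. Cxcl14 is a homeostatic chemokine made mainly by epithelia. Cxcl16 is made as a transmembrane protein that binds Cxcr6 and is also known as a scavenger receptor for oxidized lipoprotein, and the protease Adam10 sheds it from the cell surface.

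The promoters of the induced ligands are shown because the neutrophil-attracting and interferon-induced ligands differ in the factors known to induce them. Promoter sequence from RefSeq (build GRCm38.p6) was at hand for 6 of the 9 ligands, and was not printed for Cxcl5, Cxcl11 and Cxcl16. Each line is the 250 bases before the transcription start, 5′ to 3′ on the gene's strand, at chr5:90890995-90891244 (+) for Cxcl1, chr5:90903649-90903898 (+) for Cxcl2, chr5:90785851-90786100 (+) for Cxcl3, chr5:92348890-92349139 (-) for Cxcl10 and chr5:92328080-92328329 (-) for Cxcl9. Capitals mark matches, on either strand, to a kB motif (GGGA, any 2 bases, T, any base, CC), an interferon response element (ISRE) core (GAAA, any 2 bases, GAAA) or an interferon-gamma-activated site (GAS) motif (TTCNNNGAA).
Cxcl1: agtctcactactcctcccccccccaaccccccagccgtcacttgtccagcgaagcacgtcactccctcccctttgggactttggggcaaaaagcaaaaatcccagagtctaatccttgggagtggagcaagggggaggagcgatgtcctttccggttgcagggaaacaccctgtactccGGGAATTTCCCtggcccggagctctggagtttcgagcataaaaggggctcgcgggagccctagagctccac
Cxcl2: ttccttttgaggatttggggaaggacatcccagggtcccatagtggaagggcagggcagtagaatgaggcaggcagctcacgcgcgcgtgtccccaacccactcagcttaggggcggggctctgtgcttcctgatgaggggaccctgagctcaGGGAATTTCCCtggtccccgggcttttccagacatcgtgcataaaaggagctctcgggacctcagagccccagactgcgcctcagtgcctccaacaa
Cxcl3: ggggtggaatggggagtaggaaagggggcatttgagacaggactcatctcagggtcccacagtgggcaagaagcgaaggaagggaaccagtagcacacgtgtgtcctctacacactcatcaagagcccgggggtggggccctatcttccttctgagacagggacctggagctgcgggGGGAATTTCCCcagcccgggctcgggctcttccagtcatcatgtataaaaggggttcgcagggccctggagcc
Cxcl10: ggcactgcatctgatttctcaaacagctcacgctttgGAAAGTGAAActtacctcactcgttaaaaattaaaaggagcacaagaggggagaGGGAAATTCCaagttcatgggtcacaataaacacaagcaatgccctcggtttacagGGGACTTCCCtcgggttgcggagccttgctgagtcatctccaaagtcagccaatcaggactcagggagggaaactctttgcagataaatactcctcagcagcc
Cxcl9: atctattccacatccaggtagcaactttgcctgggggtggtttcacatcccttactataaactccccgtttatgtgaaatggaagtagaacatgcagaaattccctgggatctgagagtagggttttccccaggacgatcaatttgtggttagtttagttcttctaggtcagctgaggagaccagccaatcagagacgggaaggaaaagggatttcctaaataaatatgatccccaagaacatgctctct

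The same 11-base run, GGGAATTTCCC, stood in the promoters of Cxcl1 (from base -71 to -61, counted from the start), Cxcl2 (-97 to -87) and Cxcl3 (-73 to -63). It holds a kB match on each strand, and these overlap. Cxcl10 held 2 kB matches, GGGAAATTCC at -159 and GGGACTTCCC at -103, and the ISRE core GAAAGTGAAA at -213. Cxcl9 held none of the 3 motifs in this window, which says only that these letters are not there. In Cxcl14, whose promoter is not printed, an ISRE core stood at -172 and a GAS match at -191. Over 32851 mouse promoters of the same length, 3.33% held the kB motif, 2.98% the ISRE core and 7.02% the GAS motif. A match is a run of letters and not evidence that a factor binds there.

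Of the 9 ligands, 6 were higher after ox-LDL, namely Cxcl1, Cxcl2 and Cxcl3 of the neutrophil-attracting group, Cxcl9 and Cxcl10 of the interferon-induced group, and Cxcl16. Their fitted rises ran from 27.1-fold for Cxcl16 to 305-fold for Cxcl9. Cxcl5 missed the threshold, Cxcl14 was lower on average without passing it, and Cxcl11 had too few reads. A gene was called where edgeR's quasi-likelihood test gave a Benjamini-Hochberg adjusted p below 0.01, and by that rule 9.4% of the 12654 genes tested were higher. All 6 also had a log2 fold change above 2, and 4.78% of genes tested were called with a rise of that size. In all 6 the lowest ox-LDL library was above the highest control, which held for 11.6% of genes tested. The median log2 fold change over all genes tested was 0.10. For each of the 6, a two-sided exact permutation test over all arrangements of the 10 libraries gave p = 0.00794, the smallest that 5 against 5 allows. By log2 fold change they ranked 11 (Cxcl9), 21 (Cxcl3), 74 (Cxcl10), 99 (Cxcl2), 132 (Cxcl1) and 133 (Cxcl16) among the 1189 genes that were higher.

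**Figure D1:**
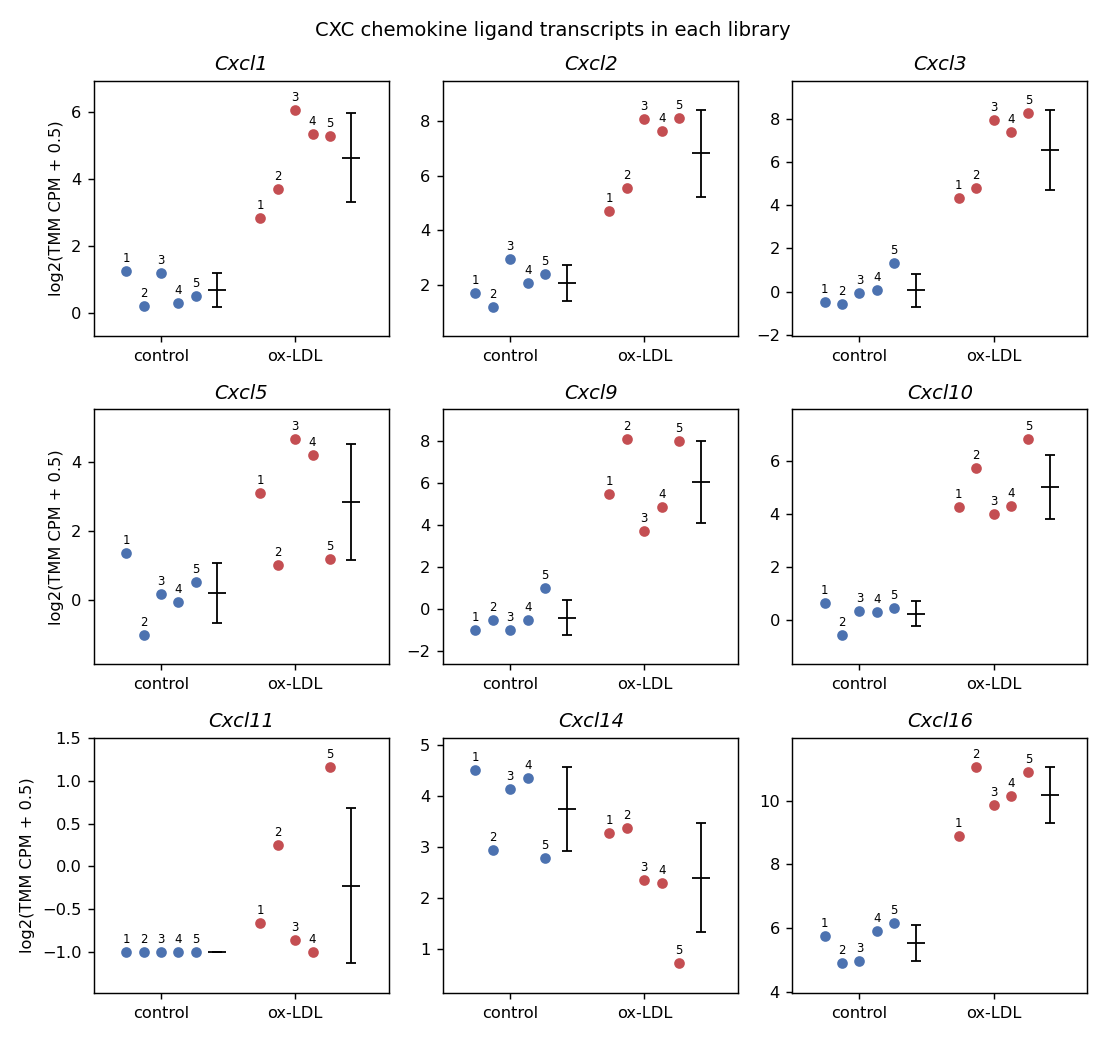
Level of each CXC ligand in each library, as log2 of TMM-normalized counts scaled to library size (CPM) plus 0.5, with replicate numbers beside the points and the mean and SD of 5 libraries as bars. The 6 called ligands show no overlap between groups, Cxcl5 and Cxcl14 overlap, and Cxcl11 lies near the floor.

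The library totals were alike, at 20094647 to 20687289 estimated counts in the controls and 19257131 to 20358017 after ox-LDL, but the scaling factors were not. TMM factors, which put the bulk of genes on a common scale, were 0.916 to 1.18 in the controls and 0.593 to 1.19 after ox-LDL, lowest in ox-LDL replicate 2. That library also stood apart in gene length, the Spearman correlation across genes between length and the deviation from the group mean being -0.67 there and between 0.08 and 0.53 in the ox-LDL libraries apart from it. In the controls it was -0.61 and -0.50 in replicates 1 and 4 and 0.39 to 0.49 in the rest. All 6 ligands stayed called, and Cxcl5 passed too, with control replicate 5 and ox-LDL replicate 2 left out, with ox-LDL replicate 2 alone left out, and with the trend on length removed.

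The neutrophil-attracting ligands rose from a low base. Cxcl2 (gene 20310) was at 2.71, 1.80, 7.15, 3.71 and 4.73 TMM CPM in control replicates 1 to 5 and at 25.7, 46.1, 268, 198 and 275 in ox-LDL replicates 1 to 5. Replicates 3, 4 and 5 of the ox-LDL group stood well above replicates 1 and 2, and even the lowest was above every control. The mean went from 4.02 ± 2.06 to 163 ± 120 CPM (SD, n = 5), a log2 fold change of 5.33 (SE 0.72, edgeR adjusted p = 2.73e-04).

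Cxcl1 (gene 14825), which with Cxcl2 makes up the main neutrophil attractants of the mouse, had the same low ox-LDL libraries at lower counts. Its levels were 1.88, 0.642, 1.80, 0.721 and 0.912 CPM in control replicates 1 to 5 and 6.70, 12.4, 66.2, 40.0 and 38.5 CPM in ox-LDL replicates 1 to 5. Again ox-LDL replicates 1 and 2 were the lowest of their group, and the groups did not overlap. The mean went from 1.19 ± 0.60 to 32.8 ± 23.96 CPM (SD, n = 5), a log2 fold change of 4.78 (SE 0.63, edgeR adjusted p = 2.52e-04).

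Cxcl3 (gene 330122) was at 0.221, 0.171, 0.471, 0.567 and 2.00 CPM in control replicates 1 to 5, and at 19.7, 27.1, 244, 165 and 309 CPM in ox-LDL replicates 1 to 5. Control replicate 5 was the highest control by a wide gap, and ox-LDL replicates 1 and 2 were once more the lowest treated libraries. The mean went from 0.686 ± 0.752 to 153 ± 129 CPM (SD, n = 5), a log2 fold change of 7.77 (SE 1.02, edgeR adjusted p = 2.36e-04). Leaving out that control gave a log2 fold change of 8.71.

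Cxcl5 (gene 20311) was more uneven. It was at 2.10, 0, 0.642, 0.464 and 0.956 CPM in control replicates 1 to 5 and at 8.22, 1.54, 25.1, 18.1 and 1.79 CPM in ox-LDL replicates 1 to 5. Replicates 1, 3 and 4 of the ox-LDL group were above all controls, whereas replicates 2 and 5 lay below control replicate 1, so the groups overlapped. The means were 0.833 ± 0.789 and 10.96 ± 10.4 CPM (SD, n = 5), with a log2 fold change of 3.74 (SE 0.94, edgeR adjusted p = 0.0117) and a two-sided exact permutation p of 0.0238. The log2 fold change was 4.39 without control replicate 1, and the adjusted p fell below 0.01 without ox-LDL replicate 2 (3.98, edgeR adjusted p = 0.00461) and without ox-LDL replicate 5 (3.98, edgeR adjusted p = 0.00929).

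Cxcl5 is known as a product of epithelial and other non-leukocyte cells, and some transcripts of stromal cells moved between the groups as well. Summed over the 10 mesothelial and stromal markers, scaled to library size alone, the controls held 18.0 to 60.9 CPM and ox-LDL replicates 1 to 5 held 126, 66.6, 156, 176 and 115 CPM. Scaled so, replicates 2 and 5, low in Cxcl5, also had the lowest marker sums of their group. In TMM CPM, the scale of the Cxcl5 values, Dcn was lowest in ox-LDL replicate 1 (56.6) and at 89.7 in replicate 2. Col1a1 and Col1a2 were lowest in replicate 2 (8.65 and 9.59), so the order is not the same on both scales. Of the 5 markers tested 3 were higher, Col1a1 (log2 fold change 2.72), Col1a2 (2.40) and Dcn (1.57), where 9.4% of all genes tested were. Col3a1 (0.60, edgeR adjusted p = 0.320) and Pdgfra (1.51, edgeR adjusted p = 0.0805) were not called. Msln and Upk3b, which define mesothelium, had at most 6 and 17 counts in any library. Upk3b and Lum, too low to test, had lower means after ox-LDL (0.544 to 0.084 and 0.121 to 0.020 CPM). Msln, Krt8 and Krt19, also untested, hardly differed. The part of stromal cells in the Cxcl5 values was not tested.

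The interferon-induced ligands were almost silent in control cells, as was Cxcl3, at a mean of 0.686 CPM against 0.716 CPM for Cxcl10. Cxcl9 (gene 17329) was at 0, 0.214, 0, 0.206 and 1.52 CPM in control replicates 1 to 5 and at 44.4, 275, 12.6, 28.8 and 259 CPM in ox-LDL replicates 1 to 5. Here ox-LDL replicates 2 and 5 were highest and replicate 3, among the highest for Cxcl1 to Cxcl3, was the lowest of its group. The mean went from 0.388 ± 0.642 to 124 ± 131 CPM (SD, n = 5), a log2 fold change of 8.25 (SE 1.28, edgeR adjusted p = 6.67e-04). That fold leans on the few control counts, and was 10.10 on the log2 scale without control replicate 5.

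Cxcl10 (gene 15945) was at 1.05, 0.171, 0.770, 0.721 and 0.869 CPM in control replicates 1 to 5, and at 18.7, 52.1, 15.2, 19 and 112 CPM in ox-LDL replicates 1 to 5. Ox-LDL replicate 5 was by far the highest, replicate 2 came next, and replicates 1, 3 and 4 lay close together above every control. The mean went from 0.716 ± 0.330 to 43.4 ± 41.2 CPM (SD, n = 5), a log2 fold change of 5.92 (SE 0.70, edgeR adjusted p = 1.20e-04). Without ox-LDL replicate 5 it was 5.22.

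Cxcl11 (gene 56066) had no read in any control library, and 3, 8, 1, 0 and 29 counts in ox-LDL replicates 1 to 5. Most of its 41 counts came from 1 library, ox-LDL replicate 5, and ox-LDL replicate 4 had none, so the groups overlapped. Set against the 3 counts over the group that a count of 0 allows, the summed counts were at least 13.7-fold higher after ox-LDL, a bound on counting error only, and the two-sided exact permutation p was 0.0476. C57BL/6 mice are known to carry a Cxcl11 allele with a frameshift that makes no working protein, and the mm9 gene set lists the locus as a processed transcript.

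Cxcl16 (gene 66102) had the highest FPKM of the 9 ligands in every library. It was at 53.0, 29.0, 30.9, 59.0 and 70.6 CPM in control replicates 1 to 5, and at 475, 2110, 939, 1136 and 1912 CPM in ox-LDL replicates 1 to 5. The lowest treated library, ox-LDL replicate 1, was well above the highest control. The mean went from 48.5 ± 18.1 to 1314 ± 683 CPM (SD, n = 5), a log2 fold change of 4.76 (SE 0.48, edgeR adjusted p = 3.95e-05), the smallest SE and adjusted p of the 8 ligands tested.

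Cxcl14 (gene 57266) was the only ligand tested with a negative log2 fold change. It was at 22.3, 7.15, 17.1, 19.98 and 6.43 CPM in control replicates 1 to 5 and at 9.13, 9.85, 4.58, 4.40 and 1.13 CPM in ox-LDL replicates 1 to 5. Control replicates 2 and 5 lay within the range of the treated libraries, whereas the other 3 controls lay above it. The means were 14.6 ± 7.37 and 5.82 ± 3.63 CPM (SD, n = 5), with a log2 fold change of -1.33 (SE 0.52, edgeR adjusted p = 0.0789) and a two-sided exact permutation p of 0.0476. No ligand was called lower, as 5.35% of genes tested were, or 1.93% with a log2 fold change below -2.

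Within the ox-LDL group, Cxcl1, Cxcl2 and Cxcl3 were low in replicates 1 and 2 and high in replicates 3, 4 and 5, with replicate 1 the lowest in TMM CPM and replicate 2 the lowest in FPKM. Cxcl5 did not share this order, being low in replicates 2 and 5. Cxcl9, Cxcl10 and Cxcl11 had their highest 2 values in replicates 2 and 5 in TMM CPM, so replicate 5 was high for both groups and replicates 2, 3 and 4 set them apart. The summed FPKM of Cxcl1, Cxcl2, Cxcl3 and Cxcl5 over that of Cxcl9, Cxcl10 and Cxcl11, a ratio that library scaling cannot change, was 1.77, 0.614, 32.1, 15.0 and 3.26 in ox-LDL replicates 1 to 5. In replicate 2 the interferon-induced ligands were the larger part, and in replicates 3 and 4 they were a small one. In the controls, all at low levels, the ratio was 6.14 to 13.2, and the ox-LDL values lay on both sides of that range.

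**Figure D2:**
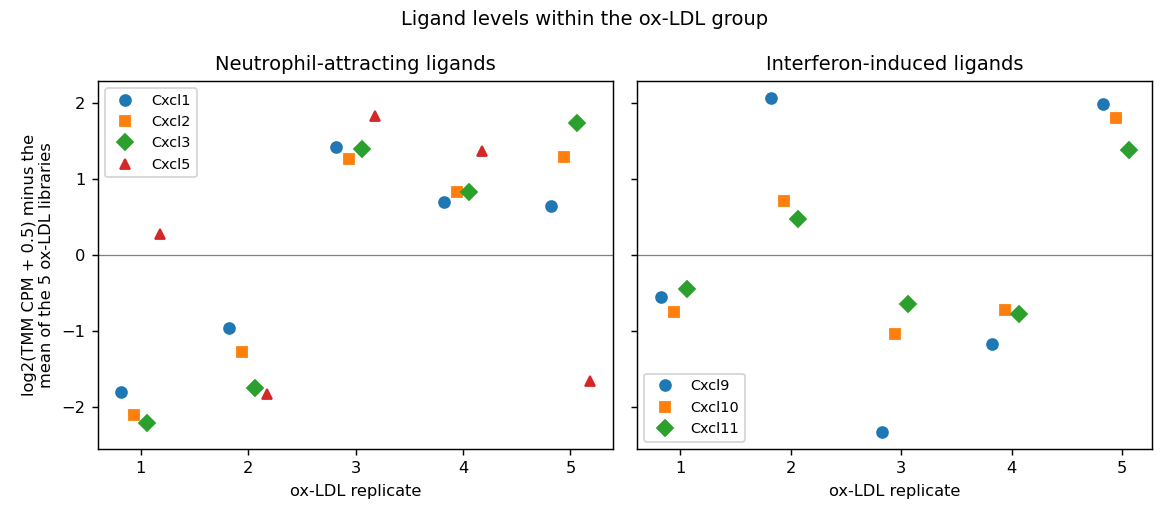
Level of each neutrophil-attracting (left) and interferon-induced (right) ligand in each ox-LDL library, as log2(TMM CPM + 0.5) minus the mean of the 5 ox-LDL libraries. Cxcl1, Cxcl2 and Cxcl3 lie below 0 in replicates 1 and 2 and above 0 in replicates 3 to 5, and the interferon-induced ligands lie above 0 in replicates 2 and 5 alone.

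The same contrast stood between single genes. Cxcl3 over Cxcl9, in FPKM, was 1.39, 0.305, 60.1, 17.8 and 3.73 in ox-LDL replicates 1 to 5, and Cxcl2 over Cxcl10 was 1.39, 0.897, 17.8, 10.45 and 2.49. Both ratios were lowest in replicate 2 and highest in replicate 3. With the trend on gene length removed, the short transcript of Cxcl10 was at 25.3 CPM in replicate 2 (after adding 0.5), level with the 23.8 and 26.1 of replicates 1 and 4, and at 135 in replicate 5. Cxcl9, which is longer, was still highest in replicate 2 on that scale, at 339 against 258 in replicate 5. On that scale replicate 3 was still the lowest for both genes.

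Levels of different genes were compared per length, on the deposited values taken as FPKM. In control cells the mean FPKM was 29.9 for Cxcl16, 9.03 for Cxcl14, 4.52 for Cxcl2, 1.53 for Cxcl1, 0.854 for Cxcl3, 0.770 for Cxcl10, 0.550 for Cxcl5, 0.158 for Cxcl9 and 0 for Cxcl11. After ox-LDL it was 672 for Cxcl16, 166 for Cxcl3, 165 for Cxcl2, 39.3 for Cxcl1, 37.9 for Cxcl10, 34.4 for Cxcl9, 7.71 for Cxcl5, 3.38 for Cxcl14 and 0.280 for Cxcl11. Cxcl16 ranked first of the 9 in all 10 libraries. Neighbours in the ox-LDL order such as Cxcl3 and Cxcl2 (SD 137 and 126), or Cxcl1, Cxcl10 and Cxcl9 (SD 32.1, 33.3 and 32.1), differed by less than their spread. Cxcl14 went from rank 2 in 4 of the 5 controls to ranks 7 to 9 after ox-LDL.

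**Figure D3:**
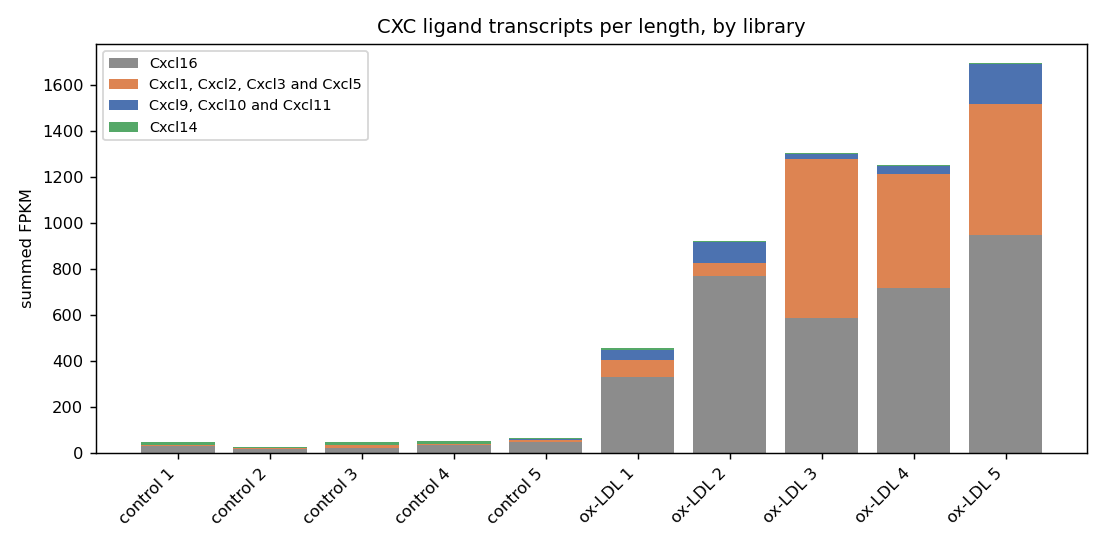
Summed FPKM of the 9 ligands in each library, split into Cxcl16, the 4 neutrophil-attracting ligands, the 3 interferon-induced ligands and Cxcl14. The sum was 27.3 to 63.3 in the controls and 455 to 1695 after ox-LDL, and the neutrophil-attracting part was largest in ox-LDL replicates 3, 4 and 5.

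Cxcl16 made up 46.1% to 74.4% of the summed ligand FPKM in the controls and 45.1% to 83.7% after ox-LDL, so its share overlapped between the groups although its level did not. The neutrophil-attracting ligands summed to 3.24 to 12.3 FPKM in the controls and to 55.4 to 692 after ox-LDL. The interferon-induced ligands summed to 0.290 to 1.65 FPKM in the controls and to 21.6 to 176 after ox-LDL. The median log2 fold change of the neutrophil-attracting ligands minus that of the interferon-induced ligands, without Cxcl11, was -2.03 in the count fit and -3.01 without control replicate 5. On log2(FPKM + 1) with no filter it was -0.27. With the filter on low FPKM, which dropped Cxcl5, it was 0.17 on log2(FPKM + 1) and -1.34 on log2(FPKM + 0.1). Its size thus changed with the scale, and on log2(FPKM + 1) its sign turned where Cxcl5 was dropped.

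Among the 8109 genes with at least 10 CPM in either group, those with the most similar profiles over the 10 libraries were sought by the root mean square difference of gene-centred log2(CPM + 0.5). That difference includes the step between the groups, so genes with a like fold change come out near. Likeness within a group was not measured apart from it. Nearest to Cxcl2 were Rbfox1 (0.371), Olr1 (0.392), which encodes the lectin-like receptor for ox-LDL, and Tnf (0.457). Nearest to Cxcl1 was Clmp (0.336), and nearest to Cxcl3 was Ptges (0.508), the prostaglandin E synthase. Nearest to Cxcl10 were Isg15 (0.388), a ubiquitin-like interferon-induced protein, and Cd40 (0.432). Nearest to Cxcl9 were AW112010 (0.641), the class I gene H2-Q7 (0.671) and the guanylate-binding protein gene Gbp4 (0.674). Cxcl16 lay nearest to the interferon-induced GTPase gene Ifi47 (0.235) and to Irf1 (0.303). The least close matches were for Cxcl5, nearest to Serpinb9b (0.593), and Cxcl9, and nearest to Cxcl14 was N4bp2l1 (0.417).

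Apart from Cxcl14 and Cxcl16, the ligands lie on chromosome 5 in the mm9 build that the study used. The neutrophil-attracting cluster runs over chr5:91188325-91334935, with Cxcl5, Cxcl3, Cxcl1 and Cxcl2 in that order on the plus strand, and the interferon-induced cluster over chr5:92750357-92794511, with Cxcl9, Cxcl10 and Cxcl11 on the minus strand, 1.42 Mb away. Of the other genes within 100 kb of the first cluster, 2 were tested. Pf4, platelet factor 4, which lies between Cxcl5 and Cxcl3, was higher (log2 fold change 2.45, SE 0.59, edgeR adjusted p = 0.00936), with 51.2 to 583 CPM after ox-LDL against 26.1 to 71.6 in the controls. Mthfd2l, at the far end, was not called (-0.38, edgeR adjusted p = 0.267).

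The Pf4 value leaned on ox-LDL replicate 2, its highest library. Without it the log2 fold change was 1.56 (edgeR adjusted p = 0.00739), and Pf4 missed the threshold under 18 of 26 alternatives. Around the interferon-induced cluster 4 other genes were tested. Naaa, which encodes a lysosomal amidase, was lower (-1.75, SE 0.21, edgeR adjusted p = 1.38e-04) and Sdad1 was higher (1.03, SE 0.23, edgeR adjusted p = 0.00555), though it missed the threshold under 9 of 26 alternatives. Nup54 (0.49) and Scarb2 (0.65) were not called.

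**Figure D4:**
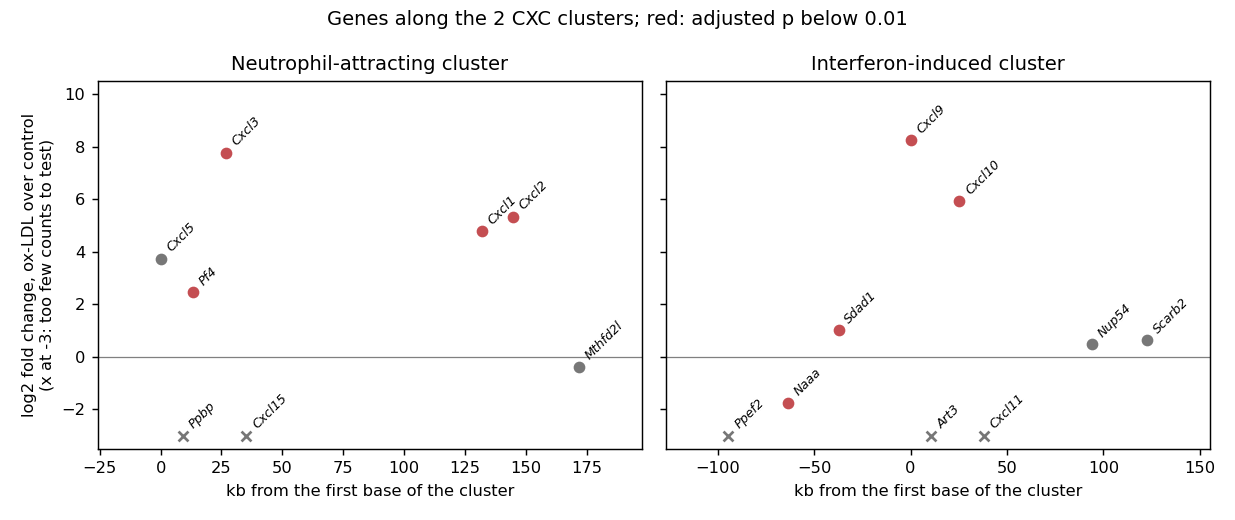
Fitted log2 fold change of each gene along the neutrophil-attracting (left) and interferon-induced (right) cluster against distance in kb from the first base of the cluster, with crosses for genes that had too few counts to test. The tested ligands lie between 3.74 and 8.25, and the other tested genes between -1.75 and 2.45.

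Some of these genes share sequence or position. Cxcl10 and Cxcl11 lie within Art3 on the opposite strand, which had at most 2 counts in any library. Cxcl16, at chr11:70267485-70273486 on the minus strand, overlaps the gene Zmynd15 by 552 bases, and Zmynd15 was higher too (4.97, SE 0.66, edgeR adjusted p = 2.46e-04), at 17.4 ± 14.6 CPM after ox-LDL (SD, n = 5) against 1314 for Cxcl16. Its log2 fold change was 5.68 without control replicate 5 and 4.31 without ox-LDL replicate 5. Whether reads were counted by strand is not stated, so reads in the overlap cannot be assigned. Cxcl1, Cxcl2 and Cxcl3 are close paralogs, and counts that were not whole, as shared reads can give, occurred for Cxcl3 in 5 libraries, for Cxcl5 in 4 and for Cxcl16 in 10, and for none of the other 6 ligands.

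Of 6 further CXC ligands, 3 were tested. Besides Pf4 these were Cxcl12, the stromal ligand of Cxcr4 (0.28, edgeR adjusted p = 0.798), and Cxcl13, the B cell attractant (1.37, edgeR adjusted p = 0.271). The sign for Cxcl12 turned under 4 alternatives. Of 8 receptors only Cxcr4 and Cxcr1 were tested and neither was called, with log2 fold changes of -0.75 (edgeR adjusted p = 0.151) and 1.33 (edgeR adjusted p = 0.207). Among receptors of the induced ligands, Cxcr2 and Cxcr3 had at most 13 and 16 counts in controls and 2 each after ox-LDL. Cxcr6 had at most 9 counts in controls and 10 after ox-LDL.

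Of 6 proteases known to cut chemokines, 5 were tested and 1 was called, as lower, where 5.35% of all genes tested were. Adam10, which sheds Cxcl16, was lower, from 93.1 ± 2.97 to 48.2 ± 13.4 CPM (SD, n = 5), a log2 fold change of -0.95 (SE 0.21, edgeR adjusted p = 0.00556), and its groups did not overlap, while 9.11% of all genes tested were lower without overlap. That call was lost under 13 of 26 alternatives, with the direction kept. Adam17, another sheddase, was not called (0.59, edgeR adjusted p = 0.0817).

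**Figure D5:**
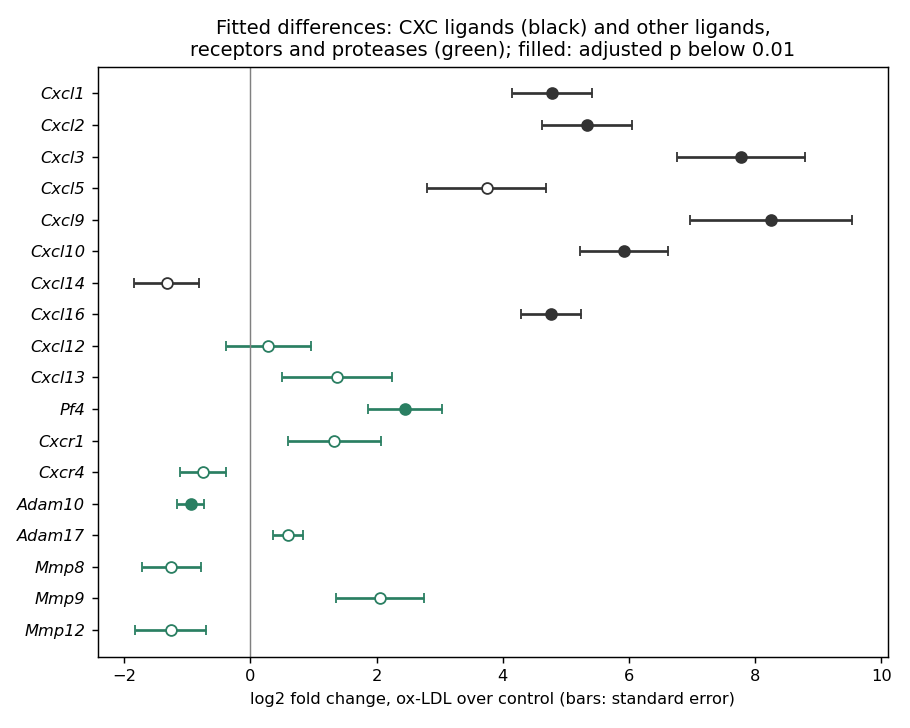
Fitted log2 fold change (ox-LDL over control, bars show SE, n = 5 per group) of the 8 ligands tested in black and of other CXC ligands, receptors and proteases in green, filled where the adjusted p was below 0.01. The 6 called ligands lie at 4.76 or more, and Pf4 and Adam10 are the called genes among the rest.

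Of 18 regulators of ligand transcription and mRNA decay, all tested, 10 were higher and none lower, where 9.4% of all genes tested were higher, with a median log2 fold change of 1.80 against 0.10 over all genes. Irf1, an interferon-side factor, was at 24 ± 5.03 CPM in the controls and 625 ± 347 after ox-LDL (SD, n = 5), a log2 fold change of 4.70 (edgeR adjusted p = 2.14e-05). Among the NF-kB factors, Nfkbia, the inhibitor that NF-kB itself induces, was higher by 3.20 (edgeR adjusted p = 8.07e-05), and Relb by 1.57. Zc3h12a, an RNase that cuts chemokine transcripts, was higher by 1.99, while Zfp36, another decay factor, was not called (1.62, edgeR adjusted p = 0.0765). The Zfp36 value rested on ox-LDL replicate 5, at 283 CPM against 24.6 to 81.1 in the other treated libraries, and was 0.56 without it. All 16 interferon-stimulated genes listed were higher, with a median of 4.99, as were 13 of the 15 LPS-inducible NF-kB targets tested, with a median of 4.06, both again beside 9.4% of all genes tested. Irf7 is counted in the first of these lists and Nfkbia and Nfkbiz in the second as well as among the regulators. The gene lists were chosen with earlier results of these data known, so their counts are no independent comparison with all genes.

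Of the marker lists, macrophage markers had the highest sum in every library. It was 23199 to 42898 CPM in the controls and 13383 to 28402 CPM after ox-LDL, scaled to library size alone. Most of that sum was Lyz2, with means of 28765 and 14326 CPM, which was not called (log2 fold change -0.67, edgeR adjusted p = 0.371). Of the 8 markers, 2 were called higher, Adgre1 (2.07) and Cd14 (2.24), where 9.4% of all genes tested were. Itgam was the only other marker with a negative log2 fold change (-0.78, not called). Neutrophil markers summed to 61.2 to 138 CPM in the controls and 79.2 to 201 CPM after ox-LDL, and S100a9 had at most 8 counts. The largest mean in that list was that of Csf3r, at 58.7 CPM in the controls and 59.7 CPM after ox-LDL. Of the 3 tested, S100a8 was called higher (log2 fold change 2.76), where 9.4% of all genes tested were. Its groups overlapped and the call was lost under 5 of 26 alternatives. Csf3r (0.27) and Mmp8 (-1.25) were not called. Too low to test, Ltf and Cxcr2 went from means of 0.990 and 0.503 CPM to 0.052 CPM each. Camp and Ngp, also untested, went from 0.020 CPM each to 0.460 and 0.136 CPM. B cell markers summed to at most 3.58 CPM and T cell markers to at most 1.81 CPM in any library. Dendritic markers summed to 0.760 to 1.85 CPM in the controls and 4.52 to 14.3 CPM after ox-LDL. The largest mean after ox-LDL was that of Ccr7 (0.181 to 4.38 CPM, log2 fold change 4.85). Ccr7 and Clec9a (2.33) were called higher, Zbtb46 (1.24) was not, and Flt3 and Xcr1 were too low to test. Eosinophil and mast cell markers summed to 2.91 to 8.12 and 0.575 to 1.95 CPM. Siglecf fell most (4.49 to 0.391 CPM, -3.32) and was called lower, Cpa3 (-1.52) was not, and the rest could not be tested. The part of these cell types in the ligand values was not tested.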

How the data were processed

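The authors sequenced total RNA on the BGISEQ-500, and the submitters' processing notes name FastQC, HISAT2 2.0.5, SAMtools 1.4, StringTie 1.3.3.13 and mm9. They deposited estimated counts per gene (13.6% of the values are not whole), which were rounded here, and, for each gene in each library, a second value without a stated unit. Count divided by this deposited value and by library total gave nearly 1 length per gene (5th to 95th percentile of the ratio to the gene's median 0.900 to 1.09), so it was taken as FPKM. The counting step and its strand setting are not given in the sources used here.

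Of 39488 rows, 9788 circular RNAs were left out. Symbols came from a RefSeq table, which matched 22818 of 23382 NCBI identifiers. Groups were taken from the sample titles. Counts were tested with edgeR 4.0.16 (TMM, filterByExpr, robust quasi-likelihood fit, Benjamini-Hochberg over 12654 genes, biological coefficient of variation 37.3%) and single values by exact permutation. Alternatives used DESeq2 1.42.0 and limma 3.58.1 in R 4.3.3, and the scripts were tested on simulated data. The p-values weigh the group difference against the spread between these libraries, which are not stated to come from different mice. Depth was about even between libraries, and the bound for Cxcl11 covers counting error only.

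The ligands, gene lists and tests were chosen with earlier results of these data known. All 9 ligands are named. List examples are the largest and smallest calls and defining members, and Olr1, Naaa, Sdad1 and Zmynd15 follow from likeness, position or overlap. Replicate numbers are not stated to pair samples.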

Additional observations from a re-analysis of the deposited data

Results flagged for a closer look

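Of 17 groups of 5 libraries examined, 1 per ligand and condition with any reads, 2 held a library farther from the rest than Dixon's 95% limit for 5 values allows (0.71 of the range), where chance would flag about 1 in 20, or 0.85 of 17. Both were control replicate 5. Its Cxcl3 level was 2.00 CPM against 0.567 in the next control, a gap of 0.784 of the range, and its Cxcl9 level was 1.52 CPM against 0.214, a gap of 0.859 of the range. The counts behind them were 46 for Cxcl3 and 35 for Cxcl9, and the log2 fold changes without this library were 8.71 and 10.10.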

How the results depend on the processing

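The 6 called ligands stayed higher and past the threshold in every alternative in which they were tested (25 or 26 each). With at least 10 counts required in every library, Cxcl3, Cxcl5, Cxcl9 and Cxcl10 were no longer tested, and the count of called ligands was 3, with or without the fold limit. With an adjusted p below 0.05, with DESeq2 (3.68, adjusted p = 0.00265) and with the length trend removed (3.95, edgeR adjusted p = 0.00678), Cxcl5 passed and the count was 7. It was also 7 without control replicate 5 and ox-LDL replicate 2 together, a choice made after seeing the data (4.06, edgeR adjusted p = 0.00846). Over all alternatives the adjusted p of Cxcl5 was 0.00265 to 0.116 and that of Cxcl14 0.0202 to 0.173. The sign of Cxcl12 turned with limma-voom (-0.13), the replicate block (-0.24), log2(FPKM + 1) with no filter (-0.072) and without ox-LDL replicate 1 (-0.80), within a range of -0.80 to 0.52 over the settings that leave libraries out. The cause was not tested. Over all genes, 1189 were higher and 677 lower. The count higher was 704 with library size alone, 555, 543 and 472 with limma on log2(FPKM + 1), on log2(FPKM + 0.1) and with no filter, 1843 without control replicate 5 and ox-LDL replicate 2, and 2045 at an adjusted p below 0.05. The count lower was 1244 with DESeq2, 1227 with the length trend removed, 1483 without those 2 libraries and 1320 at an adjusted p below 0.05. Leaving out libraries in turn, or replicate 5 of both groups, gave 809 to 1755 higher and 436 to 1502 lower, the last without ox-LDL replicate 2. With the replicate number as a block, 6 ligands were called, with 885 genes higher and 549 lower. Deviations of libraries with the same number correlated at -0.52 to 0.60 over 8109 genes, and 4 of 10 libraries correlated best with their own number, so the numbers were not read as pairs.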
